A study of Mus musculus with 9 samples.

Results

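Cholesterol leaves cells and the body through a small set of transporters, plasma enzymes and sterol-sensing receptors, and 10 genes of that set were followed here through the livers of mice given breast cell vesicles. The genes are Abca1, Abcg1, Abcg5, Abcg8, Scarb1, Lcat, Pltp, Nr1h3, Nr1h2 and Soat2, picked by symbol from a table of 55414 Ensembl genes. Each stood on 1 row of the table, and all 10 passed the filter on low values that kept 12860 genes. The measure is TPM, a transcript's share of the library scaled for its length by the authors, so levels of different genes can be set side by side.

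All mice were of the NSG strain, an immunodeficient line that lacks mature lymphocytes and natural killer cells but keeps hepatocytes, macrophages and neutrophils. Their genotype is labelled WT, and every animal received tail vein injections for 5 weeks. In the MDA-MB-231 EV group (3 libraries) the injected material was extracellular vesicles (EVs) released by the human triple-negative breast cancer line MDA-MB-231. In the MCF-10A EV group (3 libraries) it was EVs released by MCF-10A, human breast epithelial cells that do not form tumours. In the PBS group (3 libraries) it was buffer alone. The labels give no sex, age or vesicle dose. The labels number the libraries without saying that each is another mouse, so p-values cover the spread between libraries, which may be technical. The series title names host cholesterol and miR-9-5p.

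As background, the liver X receptors LXR-alpha (Nr1h3) and LXR-beta (Nr1h2) bind oxidised sterols and, paired with RXR, switch on genes that move cholesterol out of cells. Abca1 loads cholesterol and phospholipid onto apolipoprotein A-I to start an HDL particle, and Abcg1 adds more to particles already formed. In plasma, LCAT turns the cholesterol of HDL into ester and PLTP moves phospholipid between particles. The liver takes ester back through SR-BI (Scarb1), stores it with the help of SOAT2, and sends free sterol into bile through a transporter built from Abcg5 and Abcg8. Mice lack the plasma ester transfer protein CETP, so most of their cholesterol travels on HDL.

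The libraries carried liver RNA: all 8 hepatocyte markers were above 0 in all 9, with Alb, the serum albumin gene, between 13114 and 65814 TPM. Read depth is unknown because TPM does not keep it, and no counting interval can be given. Some libraries stood apart. In PBS 1 mitochondrially encoded genes made up 26.3% of TPM, against 4.96% to 12.1% in the other 8. MCF-10A EV 1 held 4349 TPM of monocyte and neutrophil markers (5 genes summed), against 14.3 to 188 TPM in the others, and 2135 TPM of Kupffer cell markers (10 genes summed), against 314 to 866 TPM. Kupffer cells are the resident macrophages of the liver. In the same library Clec4f, a gene used by them nearly alone, was at 0.610 TPM, against at least 96.5 TPM elsewhere. Erythroid markers (3 genes summed) were at 14685 TPM there, against at most 3817 TPM in the others. Saa1, a serum amyloid gene, was at 28585.5 TPM there, against at most 1211 TPM in the others. PBS 2 held 327 TPM of adipocyte markers (4 genes summed), against 3.94 to 10.5 TPM in the others. Because the tissue was sequenced in bulk, fewer cells of a type and less RNA per cell cannot be told apart.

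MDA-MB-231 EV livers were first set against PBS livers, to ask whether cancer vesicles go with a shift in this export system. Lcat gave the clearest separation: every MDA-MB-231 EV library held more of it than any PBS or MCF-10A EV library. In TPM as deposited, Scarb1 and Nr1h3 also did not overlap between MDA-MB-231 EV and PBS. The exporters Abca1, Abcg1 and Abcg5 overlapped throughout. None of the 10 genes passed the test, which was limma on log2(TPM + 1) over all 9 libraries with Benjamini-Hochberg adjustment over 12860 genes at an adjusted p under 0.05. Nor did any gene of the table: 0 of 12860 (0%) passed in MDA-MB-231 EV relative to PBS, with 199 (1.55%) at an unadjusted p under 0.05, none of them among the 10. Without PBS 1 the count was 24, without MDA-MB-231 EV 3 it was 5, and without both it was 28, with none of the 10 genes among them. In TPM as deposited the groups did not overlap for 3 of the 10 genes, beside 6.03% of all tested genes. All 3 were higher in MDA-MB-231 EV, beside 5.23%, and 0 were lower, beside 0.801%. The log2 change was above 0 for 9 of the 10 genes, beside 69.7% of all tested genes, though for 7 after quantile normalization. It was above the all-gene median of 0.21 for 7. The median of the 10 was 0.33.

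**Figure D1:**
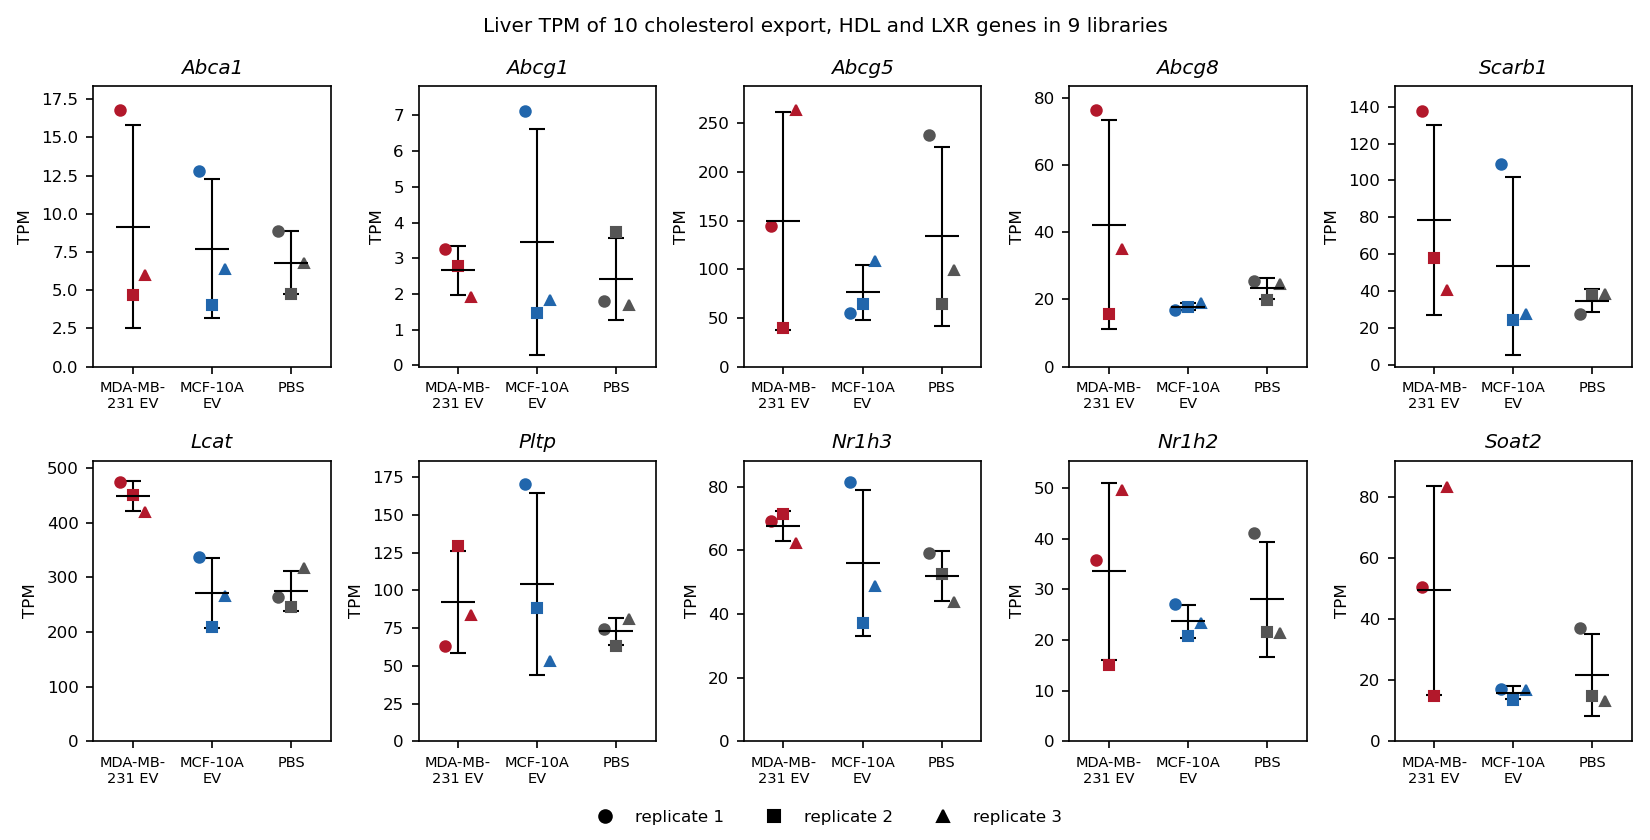
TPM (vertical axes, each from 0) of the 10 genes in the 9 libraries; points are libraries, shaped by replicate number, and bars show the group mean with its SD (n = 3). All 3 Lcat points after MDA-MB-231 EVs, at 419 to 474 TPM, lie above the other 6, at 209 to 337 TPM, while Abca1 and Scarb1 means are lifted by 1 library in each vesicle group.

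Both LXR genes were well expressed. Nr1h3, the LXR-alpha gene (Ensembl ENSMUSG00000002108; chromosome 2, 91184061 to 91202834, minus strand, GRCm38), was at 69.4, 71.4 and 62.3 TPM in MDA-MB-231 EV 1 to 3. It was at 81.5, 37.3 and 49.0 TPM in MCF-10A EV 1 to 3 and at 59.3, 52.7 and 43.7 TPM in PBS 1 to 3. In TPM as deposited the MDA-MB-231 EV values were tightly grouped and all above PBS, whereas the MCF-10A EV values spanned both other groups. PBS 1, the highest of PBS here, had 26.3% of its TPM in mitochondrially encoded genes, against 4.96% to 11.7% in MDA-MB-231 EV. With those genes left out and the columns brought to equal sums, PBS 1 lies above every MDA-MB-231 EV library. The separation of Nr1h3 from PBS is thus seen in TPM as deposited and is lost on that scale. The log2 change in MDA-MB-231 EV relative to PBS was 0.39 ± 0.39 (SE; 95% interval -0.48 to 1.25; limma adjusted p = 1), of which 0.21 is the shift of the median gene. With TPM rescaled to leave out mitochondrially encoded genes it was 0.26, and after quantile normalization 0.10.

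Nr1h2, the LXR-beta gene, found in nearly all tissues (ENSMUSG00000060601; chromosome 7, 44549616 to 44553951, minus strand), was at 35.9, 15.1 and 49.7 TPM in MDA-MB-231 EV 1 to 3. The MCF-10A EV libraries held 27.2, 20.8 and 23.3 TPM, and the PBS libraries 41.2, 21.5 and 21.5 TPM. The highest values came from MDA-MB-231 EV 3 and PBS 1, and the lowest from MDA-MB-231 EV 2, so the groups overlapped fully. In MDA-MB-231 EV relative to PBS the change was 0.17 ± 0.48 (log2, SE), and -0.085 after quantile normalization. Nr1h3 exceeded Nr1h2 in all 9 libraries. The ratio of their TPM lay between 1.25 and 4.73 in MDA-MB-231 EV, between 1.79 and 2.998 in MCF-10A EV and between 1.44 and 2.45 in PBS.

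Abca1, the exporter that starts HDL particles (ENSMUSG00000015243; chromosome 4, 53030787 to 53159895, minus strand), was at 16.8, 4.69 and 5.98 TPM in MDA-MB-231 EV 1 to 3. It was at 12.8, 4.01 and 6.38 TPM in the MCF-10A EV libraries and at 8.86, 4.74 and 6.77 TPM in the PBS libraries. Replicate 1 of each vesicle group was the highest of the 9 libraries and the others lay within the PBS range or just below it. The log2 change in MDA-MB-231 EV relative to PBS was 0.23 ± 0.53 (SE; 95% interval -0.95 to 1.41). Without MDA-MB-231 EV 1 it was -0.27.

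The 250 bases before the Abca1 start site are shown because this gene is known for an LXR element near its start. In RefSeq (GRCm38) they are chr4:53159896-53160145 on the minus strand, written 5′ to 3′. Capitals mark the match to GGTNA, any 5 bases, then GGTNA again, a loose form of the direct repeat that LXR and RXR bind (N is any base; both strands were searched, for no other motif). The match lies on the strand opposite to the gene, 67 to 53 bases before the start site.
Abca1 upstream: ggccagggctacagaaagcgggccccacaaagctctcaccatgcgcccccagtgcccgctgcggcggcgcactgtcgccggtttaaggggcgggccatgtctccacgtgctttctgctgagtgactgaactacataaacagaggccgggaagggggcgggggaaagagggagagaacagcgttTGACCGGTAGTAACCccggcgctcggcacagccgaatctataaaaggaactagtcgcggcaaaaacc
Of 32851 such 250-base windows searched, 204 (0.621%) hold the motif. Windows were found for 7 of the 10 genes, and those of Abcg5, Abcg8, Lcat, Nr1h2, Nr1h3 and Pltp hold no match. A match of letters is a description, not a measured binding site.

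Abcg1, the second exporter to HDL, used chiefly by macrophages (ENSMUSG00000024030; chromosome 17, 31057675 to 31117988, plus strand), was the lowest of the 10 genes. It was at 3.27, 2.79 and 1.92 TPM in MDA-MB-231 EV 1 to 3, at 7.11, 1.46 and 1.83 TPM in MCF-10A EV 1 to 3, and at 1.81, 3.74 and 1.69 TPM in PBS 1 to 3. MCF-10A EV 1 held the most and MCF-10A EV 2 the least, so the groups overlapped. MCF-10A EV 1 is the library with the 2135 TPM of Kupffer cell markers and the 4349 TPM of monocyte and neutrophil markers. PBS 2, highest of its group for Abcg1, is the one with the 327 TPM of adipocyte markers. The part of those cells in the Abcg1 values was not tested. Abcg1 gave a log2 change of 0.13 ± 0.51 (SE) in MDA-MB-231 EV relative to PBS.

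Abcg5 and Abcg8 encode the subunits of the transporter that sends sterol into bile, and they lie head to head on chromosome 17. Abcg5 (ENSMUSG00000040505) covers 84658234 to 84683011 on the minus strand and Abcg8 (ENSMUSG00000024254) covers 84676302 to 84700333 on the plus strand in GENCODE M21 (GRCm38). RefSeq start sites at 84683011 for Abcg5 and 84683121 for Abcg8 are separated by 109 bases, chr17:84683012-84683120, shown on the plus strand because both genes are read away from it from these starts. A second RefSeq start of Abcg8, at 84676302, lies inside Abcg5, and from there Abcg8 is read across this stretch.
Abcg5 and Abcg8 shared upstream: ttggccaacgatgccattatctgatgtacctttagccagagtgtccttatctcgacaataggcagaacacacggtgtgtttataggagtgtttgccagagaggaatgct
Annotated exons of both genes also overlap on opposite strands. Whether the kit kept strand is not stated by the labels, so reads from the overlap cannot be assigned to 1 gene with certainty.

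Abcg5 was at 145, 39.7 and 263 TPM in MDA-MB-231 EV 1 to 3, at 55.4, 64.9 and 108 TPM in MCF-10A EV 1 to 3, and at 238, 64.8 and 99.0 TPM in PBS 1 to 3. The extremes of all 9 libraries both fell within MDA-MB-231 EV. Abcg8 was at 76.2, 15.7 and 34.8 TPM in MDA-MB-231 EV, at 16.9, 17.9 and 18.8 TPM in MCF-10A EV, and at 25.6, 19.7 and 24.6 TPM in PBS. MDA-MB-231 EV 1 held the most Abcg8 and MDA-MB-231 EV 2 the least. In TPM as deposited the MCF-10A EV libraries, whose columns sum to less, sat together below all of PBS. The log2 changes in MDA-MB-231 EV relative to PBS were -0.0018 ± 0.71 for Abcg5 and 0.57 ± 0.51 for Abcg8 (SE). The gap for Abcg8 rests mostly on 1 library, with a log2 change of 0.02 without MDA-MB-231 EV 1.

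The balance of both subunits differed widely between libraries. Abcg5 exceeded Abcg8 in all 9, by 1.90-fold in MDA-MB-231 EV 1 and 9.31-fold in PBS 1 at the ends of the range. MDA-MB-231 EV 3 had the second largest excess, 7.55-fold, and MDA-MB-231 EV 2 one of 2.53-fold. The MCF-10A EV libraries lay between 3.28-fold and 5.77-fold, and PBS 2 and PBS 3 at 3.29-fold and 4.03-fold. The ranges of the 3 groups overlapped.

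**Figure D2:**
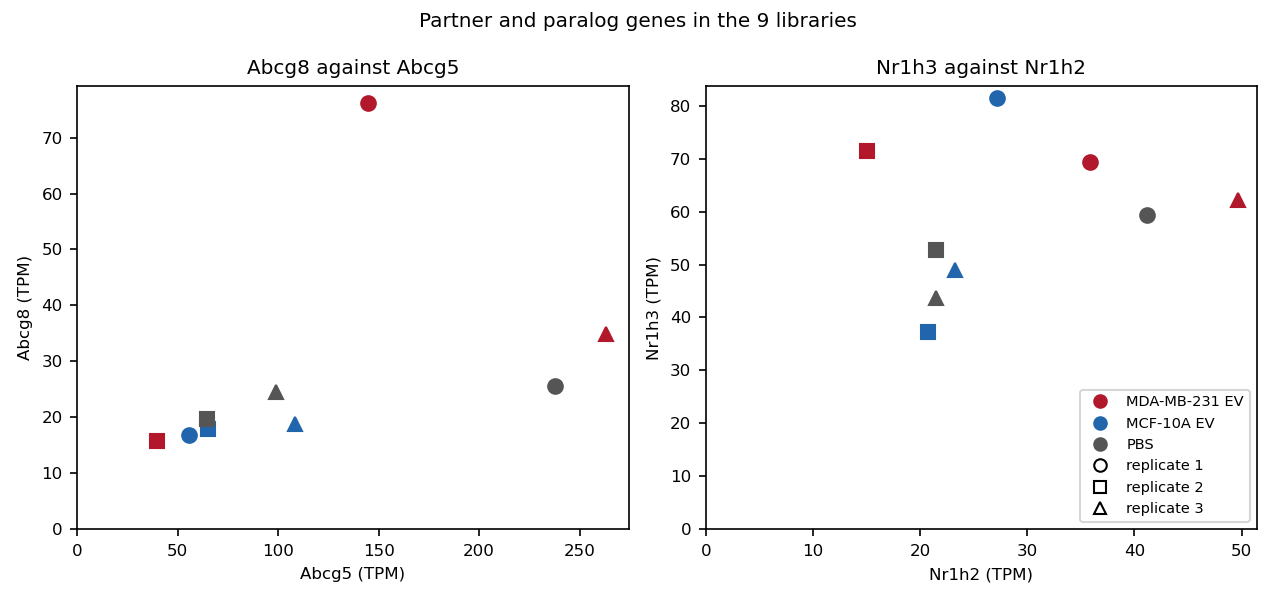
TPM of Abcg8 against Abcg5 (left) and of Nr1h3 against Nr1h2 (right), 1 point per library, coloured by group and shaped by replicate number. Abcg8 stays between 15.7 and 34.8 TPM in 8 libraries while Abcg5 runs from 39.7 to 263 TPM, and MDA-MB-231 EV 1 lies apart at 76.2 TPM of Abcg8.

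Lcat, which esterifies the cholesterol of HDL and is secreted by hepatocytes (ENSMUSG00000035237; chromosome 8, 105939551 to 105943382, minus strand), was the most abundant of the 10 genes, with a mean above that of 97.2% of all tested genes. It was at 474, 451 and 419 TPM in MDA-MB-231 EV 1 to 3, at 337, 209 and 267 TPM in MCF-10A EV 1 to 3, and at 263, 246 and 316 TPM in PBS 1 to 3. The lowest MDA-MB-231 EV library stood above the highest of the other 6. The group means were 448 ± 27.5 TPM after MDA-MB-231 EVs, 271 ± 63.6 TPM after MCF-10A EVs and 275 ± 36.6 TPM after PBS (SD, n = 3 each).

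The log2 change of Lcat was 0.71 ± 0.36 in MDA-MB-231 EV relative to PBS (SE; 95% interval -0.10 to 1.51; limma adjusted p = 1). It kept its sign in all 18 alternatives, from 0.44 after quantile normalization to 0.81 without PBS 3. Lcat also varied least within groups of the 10 genes, with an SD of 0.23 on the log2 scale, beside 0.63 for the median tested gene. For comparison, the summed hepatocyte markers were at 88525, 61394 and 21148 TPM in MDA-MB-231 EV 1 to 3 and at 22407, 43533 and 73994 TPM in PBS 1 to 3. An antisense gene, Gm16156, spans the Lcat locus without overlapping its exons and was at most at 0.490 TPM in any library.

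Pltp, the phospholipid transfer protein gene (ENSMUSG00000017754; chromosome 2, 164839518 to 164857711, minus strand), was at 63.5, 130 and 83.7 TPM in MDA-MB-231 EV 1 to 3. It was at 171, 88.2 and 53.4 TPM in MCF-10A EV 1 to 3 and at 74.5, 63.4 and 80.9 TPM in PBS 1 to 3. The PBS libraries lay close together. The MCF-10A EV libraries spread to both sides of them, and those of MDA-MB-231 EV reached above them but not below. Its log2 change in MDA-MB-231 EV relative to PBS was 0.28 ± 0.48 (SE), and -0.022 after quantile normalization. It was 0.0061 without MDA-MB-231 EV 2 and 0.52 without MDA-MB-231 EV 1. Pltp exons overlap those of Ctsa, the cathepsin A gene, on the opposite strand. Ctsa was at 147, 69.9 and 97.7 TPM in MDA-MB-231 EV 1 to 3, at 112, 54.7 and 58.5 TPM in MCF-10A EV 1 to 3, and at 73.5, 59.7 and 64.2 TPM in PBS 1 to 3, and reads from the overlap cannot be assigned with certainty.

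Scarb1, the SR-BI gene for uptake of HDL ester (ENSMUSG00000037936; chromosome 5, 125277087 to 125341094, minus strand), was at 137, 58.0 and 40.7 TPM in MDA-MB-231 EV 1 to 3. It was at 109, 24.2 and 27.5 TPM in MCF-10A EV 1 to 3 and at 27.5, 38.0 and 38.4 TPM in PBS 1 to 3. Every MDA-MB-231 EV library lay above PBS, 1 of them only by a little, and MDA-MB-231 EV 1 and MCF-10A EV 1 stood far above the other 7. The log2 change in MDA-MB-231 EV relative to PBS was 0.99 ± 0.63 (SE; 95% interval -0.40 to 2.37; limma adjusted p = 1), and 0.49 without MDA-MB-231 EV 1.

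Soat2 encodes the enzyme also called ACAT2, which makes cholesterol ester for storage and secretion in hepatocytes and is not the product of the gene named Acat2. Soat2 (ENSMUSG00000023045; chromosome 15, 102150526 to 102163469, plus strand) was at 50.4, 14.8 and 83.1 TPM in MDA-MB-231 EV 1 to 3. It was at 17.3, 13.4 and 16.9 TPM in MCF-10A EV 1 to 3 and at 37.2, 14.8 and 13.4 TPM in PBS 1 to 3. It was high in 2 MDA-MB-231 EV libraries and in PBS 1, and near the same low level in the remaining 6. The log2 change in MDA-MB-231 EV relative to PBS was 0.99 ± 0.62 (SE; 95% interval -0.37 to 2.36; limma adjusted p = 1), and 0.47 without MDA-MB-231 EV 3. Its paralog Soat1, the form of macrophages and many other cells, was at most at 4 TPM, and Soat2 led by at least 4.31-fold in every library.

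The title of the series names miR-9-5p, so the 3′ UTRs of the 10 genes were searched for its seed match. The mature mouse sequence (RefSeq, 3 loci on chromosomes 3, 7 and 13) is shown with its seed, bases 2 to 8, in capitals, above the 1 site found, with the match in capitals.
mmu-miR-9-5p: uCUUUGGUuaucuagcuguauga
Soat2 site: acagggcacACCAAAGtctgacacg
The match ACCAAAG was looked for on the sense strand of the longest 3′ UTR in GENCODE M21 of at least 50 nt, which 9 of the 10 genes have. Soat2 holds it at bases 268 to 274 of a 522 nt UTR, and Abca1, Abcg1, Abcg5, Abcg8, Scarb1, Pltp, Nr1h3 and Nr1h2 hold none. For Lcat no such UTR was found. Of 11136 tested genes with a UTR, 13.5% hold the match.

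**Figure D3:**
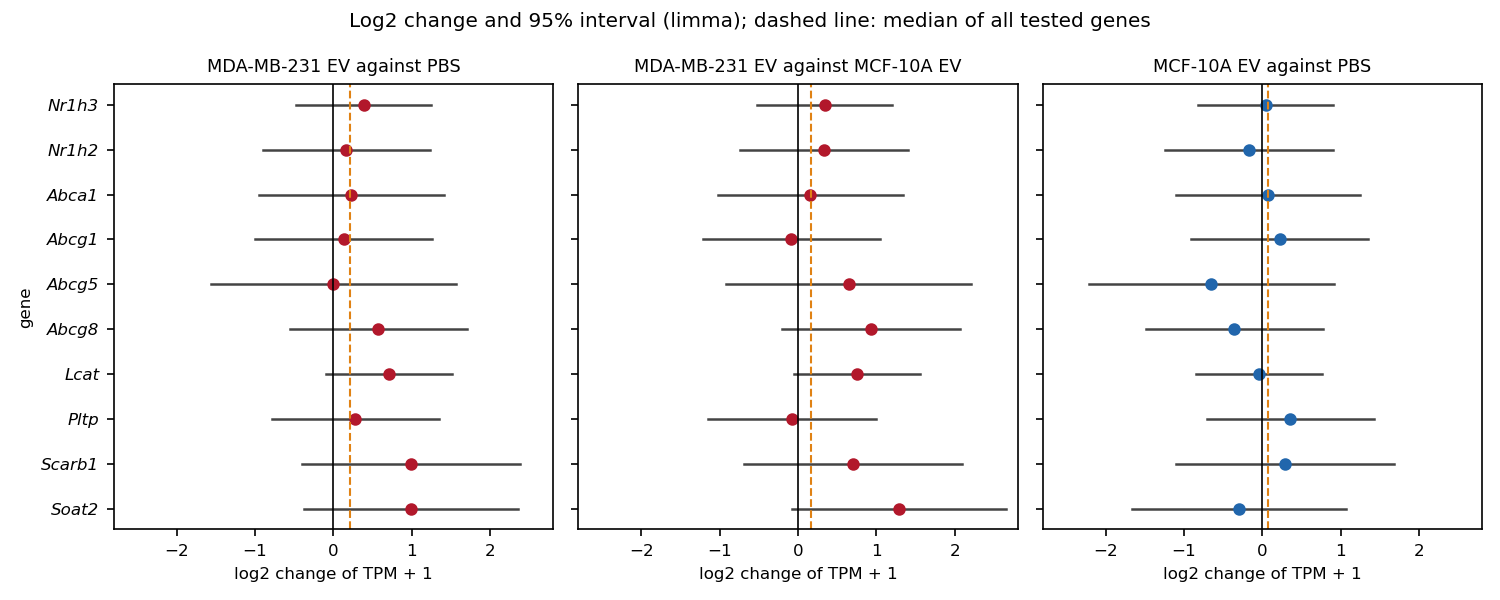
Log2 change of TPM + 1 (horizontal axes) with its 95% interval for the 10 genes in each comparison; the dashed line is the median of all 12860 tested genes. Every interval includes 0, and the one nearest to excluding it is that of Lcat in MDA-MB-231 EV relative to MCF-10A EV, from -0.06 to 1.55.

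The MCF-10A EV group offers a second control, vesicles from breast cells that do not form tumours. Its columns also differ in make-up: they sum to 934986 to 979351 TPM with all 6059 loci assembled from reads at 0, against 1000000 TPM and 1.21% to 5.70% for those loci in the other 6 libraries. An effect of how these columns were made and one of the MCF-10A vesicles cannot be told apart, in either comparison with this group. Lcat was again the gene whose groups did not overlap, with means of 448 ± 27.5 TPM in MDA-MB-231 EV livers, against 271 ± 63.6 TPM in MCF-10A EV livers (SD, n = 3 each), and a log2 change of 0.75 ± 0.36 (SE; 95% interval -0.06 to 1.55). Soat2 gave 1.28 ± 0.62 (-0.08 to 2.65), and 0.76 without MDA-MB-231 EV 3, with means of 49.4 ± 34.2 TPM in MDA-MB-231 EV livers, against 15.9 ± 2.13 TPM in MCF-10A EV livers. On the same log2 scale Abcg8 gave 0.93 ± 0.51, Scarb1 0.70 ± 0.63 and Abcg5 0.65 ± 0.71. These rest on single libraries: Abcg8 was at 0.38 and Scarb1 at 0.21 without MDA-MB-231 EV 1, and Abcg5 at 0.056 without MDA-MB-231 EV 3. Nr1h3 and Nr1h2 gave 0.34 ± 0.39 and 0.34 ± 0.48, and Abca1 0.16 ± 0.53, which was -0.037 after quantile normalization. Pltp, at -0.07 ± 0.48, and Abcg1, at -0.09 ± 0.51, were just below 0.

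None of the 10 genes passed in MDA-MB-231 EV relative to MCF-10A EV, with a limma adjusted p of 1 for each, where 28 of 12860 genes did (0.218%). With the replicate number as a block the count was 15, and 0 with the block and only these groups in the fit. None was among the 492 genes (3.83%) at an unadjusted p under 0.05. The groups did not overlap for 1 of the 10, beside 6.53% of all tested genes; it was higher in MDA-MB-231 EV, beside 4.73%, and 0 were lower, beside 1.8%. The log2 change was above 0 for 8 of the 10, beside 65%, though for 7 after quantile normalization. The median change of the 10 was 0.50 beside 0.17 for all genes. Both comparisons use the same MDA-MB-231 EV libraries, so the Lcat values in them are not independent.

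MCF-10A EV livers were then set against PBS livers, to ask what vesicles of breast cells as such go with. The 10 genes had a median log2 change of 0.00, beside 0.07 for all tested genes, and 5 of them were above 0, beside 56.8%, though 3 after rescaling without mitochondrially encoded genes. Abcg8 was the 1 gene of the 10 whose groups did not overlap in TPM as deposited. It was at 17.9 ± 0.956 TPM after MCF-10A EVs and 23.3 ± 3.15 TPM after PBS, a log2 change of -0.36 ± 0.51 (SE). The margin was small, with MCF-10A EV 3 at 18.8 TPM and PBS 2 at 19.7 TPM. The MCF-10A EV columns sum to less than those of PBS and were not rescaled. At equal column sums MCF-10A EV 3 lies just above PBS 2, so the groups then overlap. Of all tested genes 7.69% had no overlap, 4.74% with MCF-10A EV lower, as for Abcg8, and 2.95% with it higher, as for 0 of the 10. Lcat gave -0.04 ± 0.36 and Nr1h3 0.04 ± 0.39. Abcg5 gave -0.65 ± 0.71, Soat2 -0.29 ± 0.62 and Nr1h2 -0.17 ± 0.48. Pltp gave 0.35 ± 0.48, Scarb1 0.28 ± 0.63, Abcg1 0.22 ± 0.51 and Abca1 0.07 ± 0.53.

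The last 4 of these values rest on MCF-10A EV 1, since without it they were -0.079 for Pltp, -0.40 for Scarb1, -0.32 for Abcg1 and -0.32 for Abca1. None of the 10 genes passed in MCF-10A EV relative to PBS, with a limma adjusted p of 1 for each, where 25 of 12860 genes did (0.194%). None was among the 411 genes (3.2%) at an unadjusted p under 0.05. Kupffer cells also use Abca1, Abcg1, Nr1h3 and Pltp, and their 10 markers, each above 0 in all 9 libraries, were summed. The sum was between 576 and 866 TPM in MDA-MB-231 EV, between 316 and 2135 TPM in MCF-10A EV and between 314 and 692 TPM in PBS. All 10 markers had a log2 change above 0 in MDA-MB-231 EV relative to PBS, beside 69.7% of all tested genes. Their median was 0.72, beside 0.21 for all tested genes, and none was called. Their part in the values of the export genes was not tested.

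Across libraries the 10 genes did not vary as one block. MDA-MB-231 EV 1 was above the mean of 9 libraries for 9 of the 10 genes and held the most Abca1, Abcg8, Scarb1 and Lcat. MCF-10A EV 1 was above it for 7 and held the most Abcg1, Pltp and Nr1h3. MDA-MB-231 EV 3 was above it for 6 and held the most Abcg5, Nr1h2 and Soat2. MCF-10A EV 2 held the least of 5 genes and MDA-MB-231 EV 2 the least of 3. The pairs most alike over the 9 libraries were Nr1h2 with Soat2 (Pearson r = 0.91) and Abcg5 with Nr1h2 (r = 0.90), and the pair most opposed was Abcg5 with Pltp (r = -0.50). These are descriptions over 9 libraries that share 3 treatments, with no test.

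**Figure D4:**
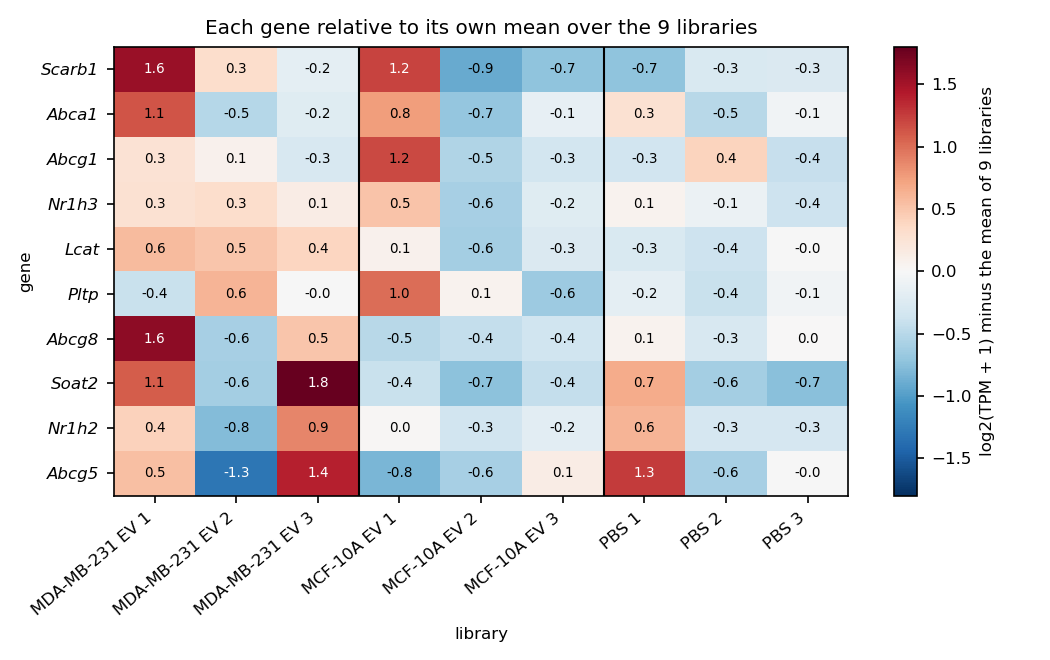
Log2(TPM + 1) of each gene (rows) in each library (columns, split by group) minus the mean of that gene over the 9 libraries, with the value in each cell. Abcg5, Nr1h2 and Soat2 are high together in MDA-MB-231 EV 3 and PBS 1, and Scarb1 and Abca1 in MDA-MB-231 EV 1 and MCF-10A EV 1.

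MDA-MB-231 EV 3 and PBS 1, in which Abcg5, Nr1h2 and Soat2 were high, also shared low hepatocyte marker sums. The sums were 21148 TPM in MDA-MB-231 EV 3 and 22407 TPM in PBS 1, against at least 34981 TPM in the other 7. Most of each sum was Alb, at 13114 TPM in MDA-MB-231 EV 3 and 15893 TPM in PBS 1. Ttr, Apoh, Fgb, Hpx and Cps1 were also lowest in these libraries, while Serpina1c and Tat were not. Tat, at 816 TPM in MDA-MB-231 EV 3, was highest there. The nuclear RNA Xist, which coats an inactive X chromosome, was at 273 TPM in MDA-MB-231 EV 3 and 320 TPM in PBS 1, and at most at 74.9 TPM elsewhere. Malat1, another nuclear RNA, was at 53.95 TPM in MDA-MB-231 EV 3 and 57.3 TPM in PBS 1, within the 5.66 to 81.9 TPM of the other 7. The part of this in the levels of the 3 genes was not tested. With both libraries left out, no member was called in any comparison. The log2 changes in MDA-MB-231 EV relative to PBS were then 0.73 for Lcat, 1.205 for Scarb1 and 0.54 for Nr1h3.

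By mean level the order was Lcat, Abcg5, Pltp, Nr1h3, Scarb1, Soat2, Nr1h2, Abcg8, Abca1 and Abcg1, from 331 to 2.85 TPM. No neighbours in that order had ranges that were separate over the 9 libraries. Lcat still exceeded Abcg5, Abcg8 exceeded Abca1, and Abca1 exceeded Abcg1 in all 9 libraries. Soat2 exceeded its lower neighbour Nr1h2 in 2 libraries, so the order of Soat2, Nr1h2 and Abcg8 cannot be set. Abcg5 varied most, 6.63-fold between its extremes, and Nr1h3 least, 2.19-fold.

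For 4 of the genes, the genes of at least 5 TPM nearest in pattern were found among 7202 by the root mean square difference in log2(TPM + 1), each gene centred on its own mean over the 9 libraries. Nearest to Abca1 were Parp9 (0.12), Epb41l5 (0.15) and Hnrnpr (0.16). Nearest to Abcg5 were Pyroxd2 (0.17), Map7 (0.19) and Sec16b (0.20). Nearest to Scarb1 were Epas1 (0.18), Hsd17b13 (0.19) and Fn1 (0.20). Nearest to Nr1h3 were Trim27 (0.10), Cox11 (0.10) and Prcc (0.11). The members themselves deviate from their means by 0.58 for Abca1, 0.88 for Abcg5, 0.82 for Scarb1 and 0.34 for Nr1h3 on the same scale.

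The wider pathway was read from 4 lists, and no gene of them was called in any comparison. Receptor partners and cofactors had a median log2 change of 0.27 in MDA-MB-231 EV relative to PBS, with 10 of 12 tested genes above 0 and 7 above the all-gene median. Rxra, the partner of both LXRs, was at 98.4, 40.4 and 24.97 TPM in MDA-MB-231 EV 1 to 3 and at 23.0, 35.4 and 27.3 TPM in PBS 1 to 3 (log2 change 0.70 ± 0.52, SE). Other LXR targets had a median of 0.29 in the same comparison, with 11 of 17 above 0 and 10 above the all-gene median. Among them Lpcat3, which remodels phospholipids, gave 0.71 ± 0.49, and Mylip, which marks the LDL receptor for breakdown, 0.59 ± 0.54. Apoe, an apolipoprotein of HDL and remnants, gave 0.41 ± 0.65, Npc1, which exports lysosomal cholesterol, 0.40 ± 0.46, and Srebf1, the gene of the lipogenic factor SREBP-1, 0.15 ± 0.62.

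HDL proteins, lipases and adaptors had a median of 0.32 in MDA-MB-231 EV relative to PBS, with 11 of 15 above 0 and 9 above the all-gene median. Pdzk1, the adaptor that holds SR-BI at the hepatocyte surface, gave 1.03 ± 0.55. It was at 49.98, 34.9 and 20.9 TPM in MDA-MB-231 EV 1 to 3 and at 8.24, 32.3 and 14.3 TPM in PBS 1 to 3. Apoa1, the main protein of HDL, gave -0.13 ± 0.39 and the hepatic lipase gene Lipc 0.14 ± 0.44. Genes of cholesterol ester storage and release had a median of 0.60, with 9 of 12 above 0, all 9 of them above the all-gene median, and Soat1 at 0.28 ± 0.48.

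The list medians in MDA-MB-231 EV relative to MCF-10A EV were 0.27 for receptor partners, 0.08 for other LXR targets, 0.19 for HDL proteins and 0.38 for ester genes, beside 0.17 for all genes. In MCF-10A EV relative to PBS they were 0.02, 0.03, 0.16 and 0.06 in the same order, beside 0.07. Lipc was at 265, 172 and 236 TPM in MDA-MB-231 EV 1 to 3 and at 74.1, 143 and 167 TPM in MCF-10A EV 1 to 3, without overlap (log2 change 0.86 ± 0.44, SE; limma adjusted p = 1). In TPM as deposited Lipc was the 1 gene without overlap among 15 of its list, beside 6.53% of all tested genes. For 4.73% MDA-MB-231 EV was the higher group, as for Lipc. The margin was small, and the MCF-10A EV columns sum to less and were not rescaled. At equal column sums the highest MCF-10A EV library lies above the lowest MDA-MB-231 EV library, so the groups then overlap. The other named genes gave 0.92 for Pdzk1, 0.89 for Mylip, 0.58 for Lpcat3, 0.58 for Rxra and 0.42 for Npc1 in the same comparison. Apoa1 gave 0.11, Apoe 0.08, Soat1 -0.09 and Srebf1 -0.19.

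**Figure D5:**
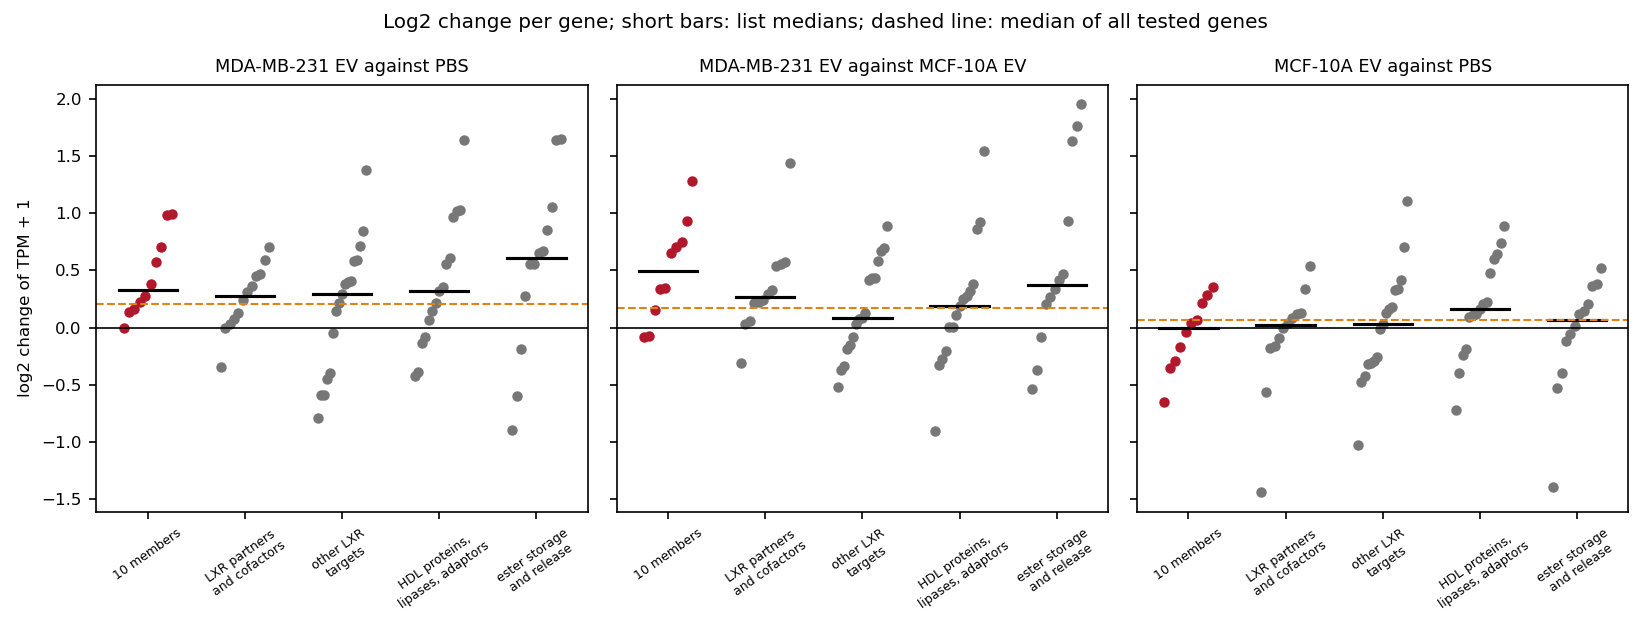
Log2 change of TPM + 1 (vertical axis) of each of the 10 genes and of the tested genes of the 4 pathway lists in each comparison; short bars are medians and the dashed line is the median of all tested genes. In MDA-MB-231 EV relative to PBS the medians run from 0.27 to 0.60, above the 0.21 of all genes.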

How the data were processed

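TPM per gene and library was deposited by the authors; per the submitters' processing notes HISAT2, StringTie and RSEM were used with GRCm39, without versions or order. Per the labels' protocols, 1 µg of RNA went into each TruSeq library. Column sums of MCF-10A EV 1 to 3 are 979351, 946777 and 934986 TPM, with all 6059 loci assembled from reads at 0 there, and those of the other 6 libraries are 1000000 within 1 TPM. These loci were left out and no library was rescaled. Depth is unknown, which limits the precision of low values.

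Ensembl genes averaging 1 TPM or more were put on the scale log2(TPM + 1) and tested by limma 3.58.1 in R 4.3.3: group means over 9 libraries, trended prior, two-sided, Benjamini-Hochberg per comparison. Fold changes on this scale understate the change of low genes. The fit was tested on simulated data. Replicate numbers come from the labels, which do not say what they share. Deviations from the group means correlated at 0.336, 0.11 and 0.436 for the same-numbered pairs of MDA-MB-231 EV and MCF-10A EV. Their other pairs gave -0.337 to 0.116. Same-numbered pairs with PBS gave -0.389 to 0.5, and PBS 1 with MDA-MB-231 EV 3, of unlike number, gave 0.625. These values do not settle whether the numbers pair libraries. The main fit used no pairing, and the replicate block is an alternative. Coordinates come from GENCODE M21 (GRCm38), not the build of the files, matched by Ensembl identifier. Always named are the 10 genes, 10 fixed pathway genes, any list gene called, and the 3 nearest in pattern to 4 members. The members and lists were chosen with earlier results of these data known. Alternatives were another pseudocount, no filter, quantile normalization, rescaling without mitochondrially encoded genes, array weights, fits of 2 groups, a replicate block and leaving out libraries.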

Additional observations from a re-analysis of the deposited data

How the results depend on the processing

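No member was called in any comparison under any alternative (19 in MDA-MB-231 EV relative to MCF-10A EV, 18 in the others); the lowest limma adjusted p was 0.37, for Scarb1 in MDA-MB-231 EV relative to MCF-10A EV with array weights. The sign was the same throughout for Lcat, Scarb1, Nr1h3, Abcg8 and Soat2 in MDA-MB-231 EV relative to PBS, for these and Abcg5 in MDA-MB-231 EV relative to MCF-10A EV, and for Abcg5 and Abcg8 in MCF-10A EV relative to PBS. The causes of the changes below were not tested. Quantile normalization moved the all-gene median in MDA-MB-231 EV relative to PBS to 0.04 from 0.21, and rescaling without mitochondrially encoded genes to 0.10.

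Log2 changes of the other sign follow. With array weights they were, in MCF-10A EV relative to PBS, -0.17 for Abca1, -0.028 for Abcg1, 0.035 for Nr1h2, -0.21 for Pltp, -0.41 for Scarb1 and 0.14 for Soat2. They were 0.42 for Abcg1 and 0.39 for Pltp in MDA-MB-231 EV relative to MCF-10A EV and 0.0055 for Abcg5 in MDA-MB-231 EV relative to PBS. Quantile normalization gave -0.037 for Abca1 in MDA-MB-231 EV relative to MCF-10A EV, and -0.085 for Nr1h2 and -0.022 for Pltp in MDA-MB-231 EV relative to PBS. The mitochondrial rescaling gave -0.032 for Abca1 and -0.068 for Nr1h3 in MCF-10A EV relative to PBS. Without MDA-MB-231 EV 3 and PBS 1 together, Nr1h2 gave 0.13 and Soat2 0.15 in MCF-10A EV relative to PBS, and Abcg1 0.069 and Nr1h2 -0.015 in MDA-MB-231 EV relative to MCF-10A EV. Without MCF-10A EV 1 and MDA-MB-231 EV 1 together, a choice made after seeing the data, Abca1 gave -0.32, Abcg1 -0.32, Nr1h3 -0.26, Pltp -0.079 and Scarb1 -0.40 in MCF-10A EV relative to PBS. The same choice gave 0.33 for Abcg1 and 0.60 for Pltp in MDA-MB-231 EV relative to MCF-10A EV and -0.27 for Abca1 in MDA-MB-231 EV relative to PBS.

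Leaving out 1 library at a time gave these ranges. In MDA-MB-231 EV relative to PBS they were -0.27 to 0.55 for Abca1, -0.014 to 0.40 for Abcg1, -0.59 to 0.76 for Abcg5 and -0.19 to 0.64 for Nr1h2. In MDA-MB-231 EV relative to MCF-10A EV they were -0.34 to 0.55 for Abca1, -0.41 to 0.45 for Abcg1, -0.015 to 0.81 for Nr1h2 and -0.47 to 0.36 for Pltp. Without a change of sign, they were 0.056 to 1.41 for Abcg5, 0.38 to 1.48 for Abcg8, 0.21 to 1.38 for Scarb1, 0.76 to 1.97 for Soat2 and 0.094 to 0.65 for Nr1h3 there, and 0.0061 to 0.52 for Pltp in MDA-MB-231 EV relative to PBS. In MCF-10A EV relative to PBS they were -0.32 to 0.41 for Abca1, -0.32 to 0.54 for Abcg1, -0.21 to 0.13 for Lcat and -0.32 to 0.13 for Nr1h2. In the same comparison they were -0.26 to 0.29 for Nr1h3, -0.079 to 0.75 for Pltp, -0.40 to 0.67 for Scarb1 and -0.55 to 0.15 for Soat2.

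Counts of genes called moved more. In MDA-MB-231 EV relative to PBS the 0 became 0 to 24 over leave-outs, with 24 without PBS 1 and 5 without MDA-MB-231 EV 3, and 28 without both. In MDA-MB-231 EV relative to MCF-10A EV the 28 became 13 to 31 over leave-outs, 46 with array weights, 11 without a filter, 11 with only both groups in the fit and 14 without MCF-10A EV 1 and MDA-MB-231 EV 1. In MCF-10A EV relative to PBS the 25 became 14 to 59 over leave-outs, 548 with array weights, 12 without a filter, 48 with only both groups, and 40 with a pseudocount of 0.1. Without MDA-MB-231 EV 3 and PBS 1 it was 85, and without MCF-10A EV 1 and MDA-MB-231 EV 1 it was 13. With the replicate block the count in MDA-MB-231 EV relative to MCF-10A EV was 15, and 0 with the block and only both groups in the fit, a choice made after seeing the data, where 654 genes had an unadjusted p under 0.05. The block changed no call of the 10 genes, and the count in MCF-10A EV relative to PBS was 20 with it. Whether the numbers pair libraries is not settled, and 5 of all 9 libraries were nearest to one of their own number.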

Other observations

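Among genes of cholesterol ester release, 3 were chosen here after their values were seen. Nceh1, a neutral cholesterol ester hydrolase gene of macrophages, was at 13.4, 17.4 and 7.72 TPM in MDA-MB-231 EV 1 to 3 and at 3.69, 2.24 and 1.60 TPM in MCF-10A EV 1 to 3. The PBS libraries held 3.73, 16.7 and 7.63 TPM of it. The MCF-10A EV libraries were the lowest 3 of the 9, with a log2 change of 1.96 ± 0.52 (SE; limma adjusted p = 0.564) in MDA-MB-231 EV relative to MCF-10A EV.

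Ces1d, a hepatic carboxylesterase gene, was at 869, 351 and 214 TPM in MDA-MB-231 EV 1 to 3, at 94.4, 97.2 and 179 TPM in MCF-10A EV 1 to 3 and at 133, 224 and 70.0 TPM in PBS 1 to 3. Its log2 change was 1.65 ± 0.60 in MDA-MB-231 EV relative to PBS and 1.76 ± 0.60 in MDA-MB-231 EV relative to MCF-10A EV (SE; limma adjusted p = 1 for both). Ces1g, its near copy, gave 1.64 ± 0.66 and 1.63 ± 0.66. Reads shared between such copies may have been split by the counting. Lipa, the lysosomal ester hydrolase gene of the same list, gave 0.86 ± 0.69 in MDA-MB-231 EV relative to PBS and 0.34 ± 0.69 in MDA-MB-231 EV relative to MCF-10A EV. Outside that list Apom, an apolipoprotein gene of HDL that is also not among the genes fixed for naming, gave 1.64 ± 0.86 and 1.55 ± 0.86. It was called in neither comparison. Apom was at 416, 359 and 56.9 TPM in MDA-MB-231 EV 1 to 3 and at 187, 51.6 and 34.4 TPM in MCF-10A EV 1 to 3. The PBS libraries held 30.9, 115 and 76.9 TPM, so MDA-MB-231 EV 3 overlapped both other groups.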
